A study of Mus musculus with 8 samples.

Results

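Cytosolic ribosomal protein genes encode the proteins of the large (60S) and small (40S) ribosomal subunits. Members were chosen by name: protein-coding genes whose symbol starts with Rpl, Rps or Rplp followed by a digit, without the Rps6 kinases and without pseudogenes, plus Fau, whose product carries small subunit protein eS30. This gave 85 of the 19330 genes of the deposited table. Of these, 51 are large subunit genes, 33 are small subunit genes, and Rps19bp1 matches the pattern by name but encodes a binding partner of a ribosomal protein, not a subunit. The expression filter kept 84 of the 85, leaving out Rpl3l. Rpsa and Rack1, which also encode proteins of the ribosome, have names outside the pattern and are given separately.

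The cells were regulatory T cells (Tregs) made in vitro from splenic naive CD4+ T cells of B6 mice during 3 days of culture. The control group of 4 libraries was polarized without oxPAPC, and the group of 4 oxPAPC libraries with it. oxPAPC is a mixture of oxidation products of the phospholipid PAPC. No genetic modification is named for either group, and age, sex and the dose of oxPAPC are not given in the sources used here. Whether the replicates are separate mice or separate cultures is not stated in the labels. The p-values therefore reflect the spread among these 8 libraries, which may be technical. The comparison asks what oxPAPC does to the ribosomal protein transcripts of Tregs made in its presence.

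A ribosome holds most of these proteins in single copies, and cells keep their supply balanced with ribosomal RNA. Their mRNAs typically begin with a 5′ terminal oligopyrimidine (TOP) tract, a run of C and T bases at the transcription start, through which mTORC1 and LARP1 control their translation as a group. That control acts on translation and mRNA stability and need not alter mRNA levels in step. T cells raise ribosome production when they are activated. When it is disturbed, Rpl5 and Rpl11 can bind Mdm2 with 5S RNA and release p53.

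The TOP tract can be seen at the start sites. The sequences below, from the RefSeq promoter windows of GRCm38.p6, run from 40 bases before the annotated start through the first 20 transcribed bases, 5′ to 3′. They are shown because 3 of them (Rps10, Rpl7l1, Rpl24) belong to the genes with the smallest p-values among rises. The other 5 show a run of C and T in small subunit genes (Rps6, Fau), large subunit genes (Rpl15, Rplp2) and a paralog variant (Rpl22l1). In Rpl22l1 the run begins 1 base after the annotated start and so does not include it. Capitals mark the longest run of C and T, of 5 bases or more, that touches the 20 bases on either side of the start.
Rps6: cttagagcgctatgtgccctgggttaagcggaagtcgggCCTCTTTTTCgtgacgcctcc
Fau: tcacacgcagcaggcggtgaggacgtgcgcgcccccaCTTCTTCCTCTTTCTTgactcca
Rpl15: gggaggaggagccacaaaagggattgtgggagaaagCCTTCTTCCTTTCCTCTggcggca
Rplp2: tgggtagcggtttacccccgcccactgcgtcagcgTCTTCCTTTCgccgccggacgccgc
Rps10: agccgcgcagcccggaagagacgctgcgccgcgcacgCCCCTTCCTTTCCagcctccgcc
Rpl22l1: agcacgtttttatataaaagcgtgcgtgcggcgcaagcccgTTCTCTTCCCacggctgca
Rpl7l1: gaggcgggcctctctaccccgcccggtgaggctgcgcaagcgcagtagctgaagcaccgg
Rpl24: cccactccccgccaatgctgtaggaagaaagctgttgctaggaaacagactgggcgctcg
These windows lie at chr4:86857348-86857407 (Rps6, minus strand), chr19:6057907-6057966 (Fau, plus), chr14:18270967-18271026 (Rpl15, minus), chr7:141447611-141447670 (Rplp2, plus), chr17:27635225-27635284 (Rps10, minus), chr3:28805468-28805527 (Rpl22l1, plus), chr17:46782637-46782696 (Rpl7l1, minus) and chr16:55966235-55966294 (Rpl24, plus). The marked runs measure 17 bases in Rpl15, 16 in Fau, 13 in Rps10 and 10 in Rps6, Rplp2 and Rpl22l1. The windows of Rpl7l1 and Rpl24 hold no such run at the annotated start, and the letters say nothing about the starts used in these cells. A window was found for 64 of the 84 subunit genes. A run of at least 8 C or T bases within 20 bases of the start was present in 53.1% of these 64, against 23.7% of the 27025 genes with a window. The share was 56.4% among 39 large and 48.0% among 25 small subunit genes. Over the whole window of 250 bases before to 50 after the start, both strands searched, the ETS-type motif CCGGAAG occurred in 39.1% (all genes 9.9%) and the GC box core GGGCGG in 60.9% (38.2%). The E-box CACGTG occurred in 9.4% (8.1%) and TATAAA in 10.9% (15.7%).

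Levels are given as CPM, counts scaled to a common library size after TMM scaling, which evens out differences in library composition. Ribosomal protein transcripts took between 10.5% and 17.3% of all counts of a library, at library totals of 14017583 to 21619731. Several features of the libraries bear on every value that follows. oxPAPC replicate 3 had the lowest level of all 8 libraries for 65 of the 83 tested subunit genes, and control replicate 1 had the highest for 42. The gene model Gm26917 took 8.59% to 29.1% of the counts in the control group and 9.35% to 19.4% in the oxPAPC group. Over the 8 libraries Rn7sk took 1.91% to 3.63% and mitochondrial transcripts 1.72% to 5.88%. Treg and T cell markers were present at a summed 2014 to 2465 CPM in control and 2013 to 3016 CPM in oxPAPC libraries. Of these 10 markers, 0 were called by edgeR, 2 had an unadjusted p under 0.05, and DESeq2 called Il2ra higher. B cell markers summed to 11.8 to 17.0 CPM in control and 19.7 to 24.3 CPM in oxPAPC libraries, with 4 of 7 called higher. The 2 B cell genes most abundant in control were not called: Cd79b was lower, with groups that did not overlap (log2 fold change -0.58, adjusted p = 0.0983, edgeR), and Cd79a had a log2 fold change of 0.07. Myeloid markers summed to 4.23 to 5.07 CPM and 9.40 to 11.6 CPM, with 1 of 4 tested higher. Cd8a and Cd8b1 summed to 6.72 to 8.90 and 10.9 to 18.7 CPM, NK markers to 0.92 to 1.89 and 2.91 to 4.56 CPM, and red cell markers to 10.9 to 18.0 and 12.2 to 27.6 CPM. edgeR called 1 of 2 tested higher among the CD8 markers (Cd8a) and among the NK markers (Klrk1), and 0 of 2 among the red cell markers. Over all tested genes, 6.75% were called higher. The part of B, myeloid, CD8, NK and red cells in the results was not tested. With Gm26917, Rn7sk and the mitochondrial genes left out of the counts, the same 2 members were called as with them, Rpl7l1 and Rps10, 76 of 84 members were negative and their median log2 fold change was -0.20, against -0.21 with them. In bulk RNA, fewer cells of a type and less RNA per cell cannot be told apart.

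Nearly all ribosomal protein genes fell short of the test for a change under oxPAPC, and the 2 that passed were higher. With edgeR (quasi-likelihood test, Benjamini-Hochberg adjustment over all tested genes, adjusted p under 0.05), 2 of 84 tested members rose (Rpl7l1 and Rps10), 0 fell and 82 did not pass. Among all 16434 tested genes, 6.75% were called higher and 6.52% lower, together 13.3%. An unadjusted p under 0.05 was reached by 5 members (Rpl7l1, Rps10, Rpl24 and Rps19bp1 on the higher side, and 1 on the lower), against 27.5% of all genes. DESeq2 also called 0 members lower, and limma-voom with quality weights called 1. Control and oxPAPC values did not overlap in 3 members that were higher (all genes 9.5%) and in 2 that were lower, Rpl4 and Rpl10a (all genes 9.86%).

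Most members nevertheless had lower values in the oxPAPC group. The log2 fold change was negative in 76 of 84 members, with a median of -0.21, against -0.01 over all tested genes. Most ribosomal protein mRNAs are abundant, so they were also compared with other abundant genes. Of the 76 members with at least 100 CPM in control, 75 were negative with a median of -0.23. All 1407 genes at that level had a median of -0.07 and were negative in 59.0%. This cut used the control group alone, the base of the fold change, so noise near the cut favours negative values in both sets. Rps27l, positive at 0.28, just missed it, with a mean of 98.3 CPM without oxPAPC and 119 with it. How a cut on both groups would change these values was not tested. The 76 members also varied more between replicates: the median pooled SD of log2 CPM was 0.35, against 0.25 for the 1407 genes. Without oxPAPC replicate 3, 59 of 84 members were negative, the median was -0.07 and 3 were called higher (Rpl24 in addition). Without control replicate 1, 69 were negative and the median was -0.13. Scaling by library size moved the median of all genes to 0.12 and that of the members to -0.09, with 62 of 84 members negative, a difference of -0.20 between members and all genes, against -0.19 with TMM. The 95% intervals excluded a rise of 1.5-fold or more for 74 members and a fall of 1.5-fold or more for 12. For the other members a fall of 1.5-fold lay within the interval. A change of 2-fold in either direction was excluded for 76.

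**Figure D1:**
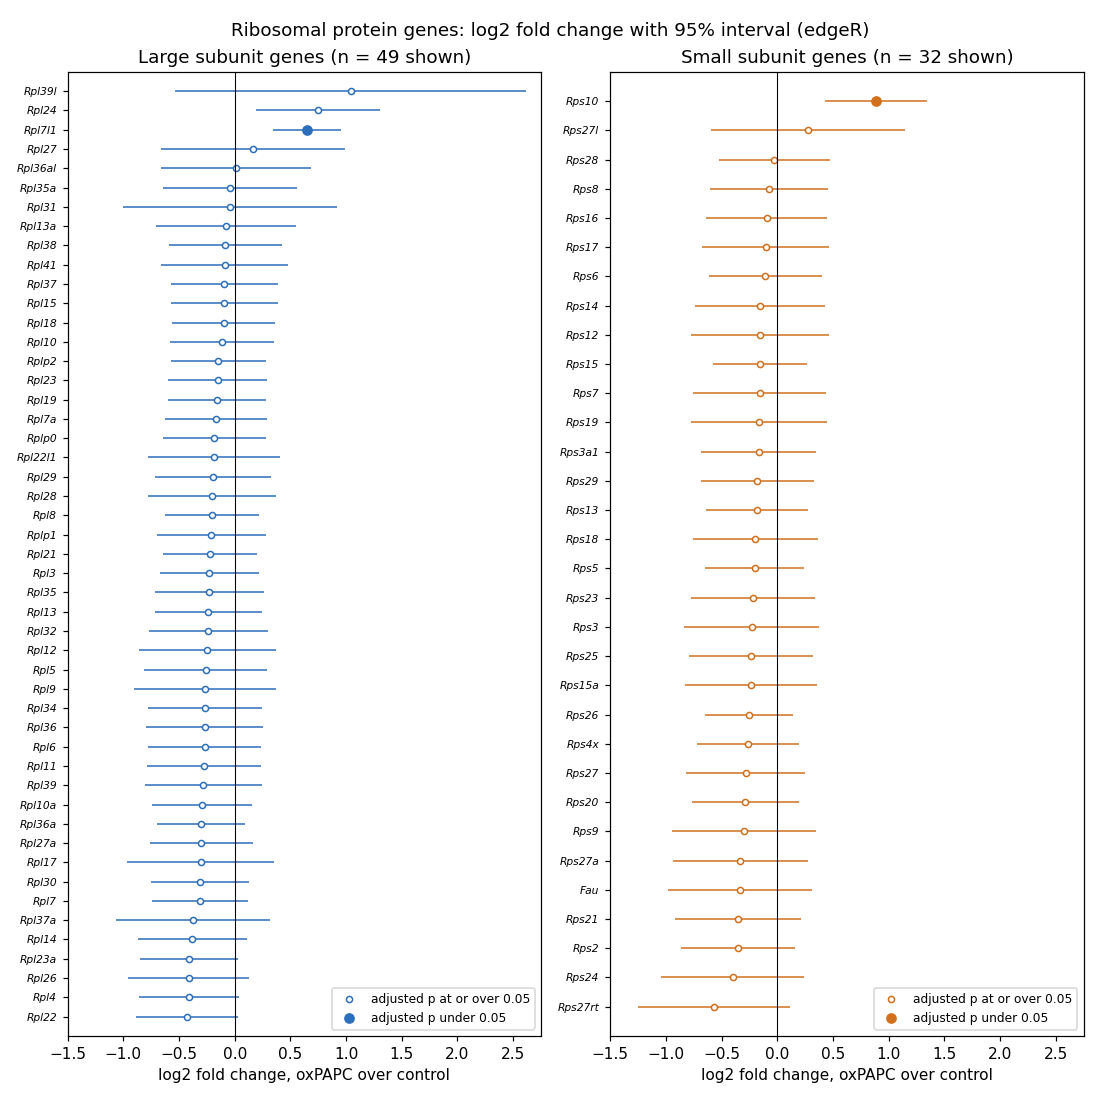
Log2 fold change (oxPAPC over control, x axis) of tested large subunit genes (left, 49 drawn) and small subunit genes (right, 32 drawn), with 95% intervals from edgeR; filled points have an adjusted p under 0.05. Most points lie just left of 0, and the filled points, Rpl7l1 and Rps10, lie to the right.

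The values of large and small subunit genes were close to each other. Of 50 tested large subunit genes 1 rose and 0 fell, with a median log2 fold change of -0.23 and 45 negative values. The 1 that rose is Rpl7l1, counted here by its name, a relative of Rpl7 that takes part in large subunit assembly. Of 33 small subunit genes 1 rose and 0 fell, with a median of -0.20 and 31 negative values. The medians were -0.10 (large) and -0.06 (small) without oxPAPC replicate 3, -0.15 and -0.10 without control replicate 1, and -0.10 and -0.07 with library size scaling. Summed over the subunit, large subunit genes reached 95960, 77518, 80868 and 70862 CPM in control replicates 1 to 4 and 73947, 73779, 52092 and 76738 CPM in oxPAPC replicates 1 to 4. Small subunit genes reached 86942, 68586, 71617 and 62349 CPM in control and 69852, 68082, 42743 and 68471 CPM in oxPAPC libraries. For both subunits the groups overlapped, control replicate 1 was the highest library and oxPAPC replicate 3 the lowest. As a share of all counts, before TMM scaling, control replicate 3 was the highest for both (9.15% large, 8.11% small). oxPAPC replicate 3 was again the lowest (5.74% and 4.71%). Without it the mean shares were 7.74% and 7.11% under oxPAPC, against 7.77% and 6.91% in control. The large subunit sum averaged 81302 ± 10620 CPM without oxPAPC and 69139 ± 11445 CPM with it, and the small subunit sum 72373 ± 10451 and 62287 ± 13051 CPM (SD, n = 4 per group).

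The ratio of the large to the small subunit sum was 1.10, 1.13, 1.13 and 1.14 in the control libraries and 1.06, 1.08, 1.22 and 1.12 in the oxPAPC libraries. Its mean was 1.12 ± 0.0145 in control and 1.12 ± 0.0703 under oxPAPC (SD, n = 4 per group). The means were equal to this precision and the oxPAPC libraries spread more widely, with replicate 3 above and replicates 1 and 2 below every control library. In oxPAPC replicate 3 the median log2 ratio to the mean of the other oxPAPC libraries was -0.58 for large and -0.73 for small subunit genes. Without that library the ratio averaged 1.09 under oxPAPC.

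**Figure D2:**
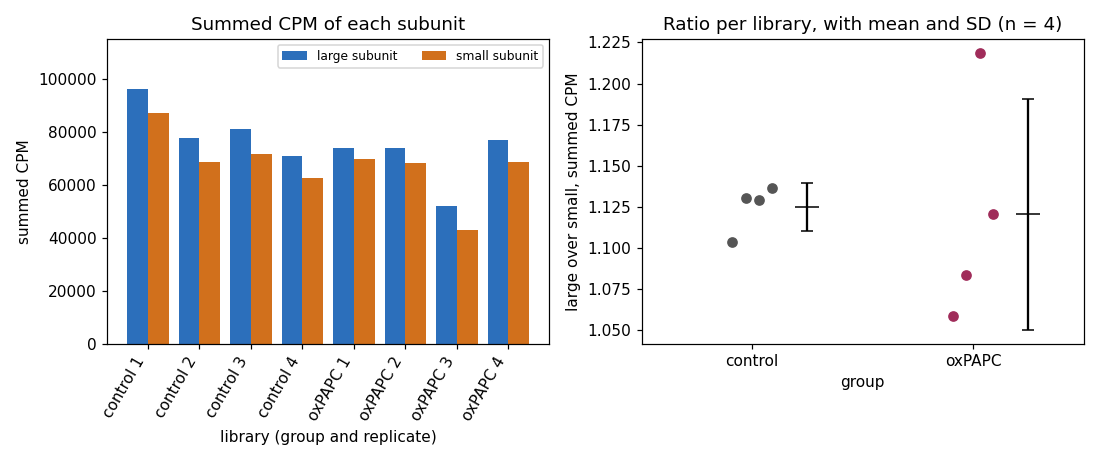
Left, summed CPM (y axis) of large and small subunit genes in each library; right, ratio of the large to the small sum per library (points) with mean and SD bars, n = 4 per group, on a y axis that does not start at 0. oxPAPC replicate 3 has the lowest sums, 52092 and 42743 CPM, and the highest ratio, 1.22.

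Rpl7l1 (ENSMUSG00000063888.7, chr17:46773907-46782672, minus strand, GRCm38) encodes a relative of Rpl7 that takes part in assembly of the large subunit in the nucleolus. Its level was 44.0, 40.9, 42.8 and 43.7 CPM in the control libraries and 65.1, 52.9, 79.1 and 71.2 CPM in the oxPAPC libraries. Every oxPAPC library lay above every control library, and the highest was replicate 3, the library with the least ribosomal protein mRNA in sum. The mean rose from 42.8 ± 1.39 to 67.0 ± 11.0 CPM (SD, n = 4 per group), a log2 fold change of 0.65 ± 0.14 (SE, adjusted p = 0.0084, edgeR). Leaving out any single library kept the adjusted p between 0.0044 and 0.0329. Rpl7 itself, the structural subunit protein, went from 1782 ± 237 to 1432 ± 203 CPM. Rpl7 had a log2 fold change of -0.32 (adjusted p = 0.342, edgeR). The variant was thus called higher and its partner was not called.

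Rps10 (ENSMUSG00000052146.16, chr17:27630418-27636669, minus strand), a protein of the small subunit near the mRNA entry side, was counted at 10.8, 11.5, 6.26 and 9.43 CPM in control and 22.1, 19.6, 13.4 and 15.1 CPM in oxPAPC libraries. The groups did not overlap. The log2 fold change of Rps10 was 0.88 ± 0.21 (SE, adjusted p = 0.0143, edgeR), and without oxPAPC replicate 1 the adjusted p was 0.0520. The level of this core subunit gene was far below that of its partners in the 40S subunit. The annotated exons of RPS10-NUDT3, a readthrough gene model on the same strand, cover 91.57% of its principal transcript, and 3 Rps10 pseudogenes hold 228% as many counts as Rps10 itself. Pseudogene counts went the other way, from 34.0 ± 7.05 to 26.1 ± 4.73 CPM (SD, n = 4 per group). With the pseudogene counts added to the gene, the control libraries averaged 43.5 ± 8.03 CPM and the oxPAPC libraries 43.6 ± 8.01 CPM (SD, n = 4 per group). The log2 fold change was then 0.00 (95% interval -0.36 to 0.36, adjusted p = 0.993, edgeR). The rise of Rps10 is therefore a rise of the counts assigned to this gene model alone. Among the 50 subunit genes with pseudogene rows, 120 rows in all, pseudogenes held a median of 0.53% of the parent's counts, and Rps10 was the single gene over 10%, followed by Rpl19 with 5.54%.

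Rpl24 (ENSMUSG00000098274.7, chr16:55966275-55971435, plus strand), a large subunit protein at the interface with the small subunit, missed the threshold. Its level was 2.73, 1.51, 2.47 and 1.93 CPM in control and 4.18, 4.03, 2.69 and 3.75 CPM in oxPAPC libraries, with an overlap at oxPAPC replicate 3. The log2 fold change was 0.75 ± 0.26 (SE, adjusted p = 0.0717, edgeR). The authors' deposited table gives it an adjusted p of 0.0313. The authors' deposited table calls 3 members higher, Rpl7l1, Rps10 and Rpl24, calls 0 lower and leaves 7 without an adjusted p. Rpl24 too shares 71.49% of its principal transcript with another gene model on the same strand, Gm28037.

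Levels per kilobase of the principal transcript show where such overlap occurs. Ribosomal proteins are needed in nearly equal numbers. The 70 subunit genes that were neither paralog variants nor largely overlapped had 522 (Rpl23) to 11565 (Rpl41) CPM per kb in control. Their median was 2446. The range from the 10th to the 90th percentile was 1181 to 5370, a ratio of 4.55. The highest were Rpl41, Rps12 (10292), Rps14 (8746), Rps18 (7209), Rpl37a (6641) and Rplp1 (6274). Among these 70 the median was 2140 for 40 large and 2641 for 30 small subunit genes. By contrast, the 4 genes with at least 25% of the transcript inside another gene model on the same strand stood at 3.19 (Rpl24), 7.09 (Rpl36al), 19.1 (Rps10) and 125 (Rpl13a) CPM per kb. The covered share was 63.12% for Rpl36al (Gm49383), which is also a paralog variant, and 59.31% for Rpl13a (Gm45713). None of these 4 overlapping models is listed among the 19330 genes. The 4 genes overlapped to that extent on the opposite strand, Rpl23a, Rpl30, Rpl35 and Rpl5, stood at 930 to 1243 CPM per kb. Of all tested genes, 1.64% have such a same-strand overlap. The sources used here do not say how reads in shared exons were assigned, and the part of this in these levels was not tested. Rpl36al and Rpl13a, at the same kind of locus, had log2 fold changes of 0.01 and -0.08, neither of which passed the test.

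**Figure D3:**
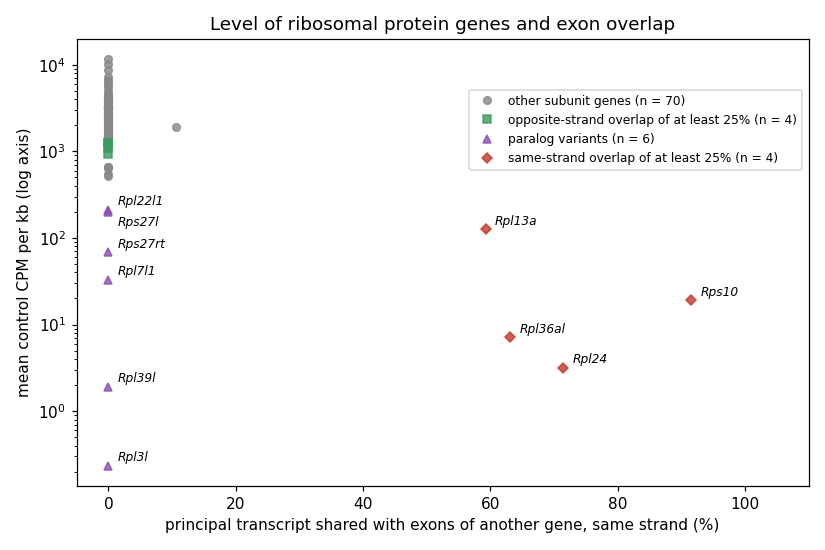
Mean control CPM per kb (y axis, log scale) of 84 subunit genes against the percentage of the principal transcript shared with exons of another gene on the same strand (x axis). Rpl13a, Rps10, Rpl36al and Rpl24 combine a share above 25% with levels of 125 CPM per kb or less. They lie below the 70 genes that are neither paralog variants nor largely overlapped. The paralog variants Rpl3l, Rpl39l, Rpl7l1 and Rps27rt also lie below Rpl13a, without such overlap.

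The paralog variants form another low group. Apart from Rpl36al, they ran from 0.24 (Rpl3l, the muscle form of Rpl3) through 1.91 (Rpl39l), 32.7 (Rpl7l1), 68.3 (Rps27rt) and 197 (Rps27l) to 210.4 (Rpl22l1) CPM per kb. Rpl39l, the variant known from male germ cells, had 0.466, 0.604, 0.685 and 2.44 CPM in control and 0.672, 1.26, 0.441 and 6.49 CPM in oxPAPC libraries. Replicate 4 was the highest of each group and the groups overlapped. Its log2 fold change of 1.04 had the widest error among the members (SE 0.73, adjusted p = 0.398, edgeR). Rpl22l1, which can replace Rpl22 and is controlled by it, had 141, 81.7, 149 and 92.0 CPM in control and 115, 117, 47.6 and 129 CPM in oxPAPC libraries. Rpl22, needed for alpha-beta T cell development, had 915, 709.9, 709 and 618 CPM in control and 632, 600.3, 356 and 601 CPM in oxPAPC libraries. In both genes oxPAPC replicate 3 was the lowest library by a wide margin, and neither passed the test. Their log2 fold changes were -0.18 and -0.43 (adjusted p = 0.722 and 0.209, edgeR).

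Rps27l, a target of p53, and its partner Rps27 had log2 fold changes of 0.28 and -0.28. Rps27rt, a single-exon copy of Rps27, had the lowest value of any member, -0.57 ± 0.32 (SE, adjusted p = 0.278, edgeR). Its control libraries held 26.1, 17.5, 45.1 and 13.4 CPM and its oxPAPC libraries 13.8, 17.7, 12.5 and 25.1 CPM. The groups overlapped, and reads of such a copy can be shared with Rps27. The 8 structural partners of the variants (Rpl3, Rpl7, Rpl10, Rpl22, Rpl36a, Rpl39, Rps4x, Rps27) were all negative, with a median of -0.28 and 0 called in either direction by edgeR, DESeq2 or limma-voom, and none at an unadjusted p under 0.05. The median was -0.17 without oxPAPC replicate 3, library size scaling left 7 of the 8 negative (median -0.17), and the correction for GC content and length called Rpl22 lower. Rps4l, annotated as a transcribed processed pseudogene of Rps4x and so no member, rose from 0.956 ± 0.277 to 1.96 ± 0.603 CPM (SD, n = 4 per group). Its log2 fold change was 1.07 ± 0.33 (SE, adjusted p = 0.0476, edgeR), and 7 of the 8 fits without 1 library lost the call.

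Among the large subunit genes with the lowest values, Rpl4 lines the peptide exit tunnel. It was detected at 2043, 2047, 2111 and 2211 CPM in control and 1312, 1281, 1879.8 and 1846 CPM in oxPAPC libraries. The groups did not overlap, and within the oxPAPC group replicates 1 and 2 were low and replicates 3 and 4 close to control. The log2 fold change was -0.41 ± 0.21 (SE, adjusted p = 0.222, edgeR). In Rpl4 oxPAPC replicate 3 was the highest of the oxPAPC libraries, whereas it was the lowest in 72 of the 83 subunit genes. Rpl26, beside the tunnel exit, had a log2 fold change of -0.41 (adjusted p = 0.323, edgeR) and, like most members, its lowest level in that library, 1129 CPM against 1743 to 2169 in the other oxPAPC libraries. All 8 listed proteins of the exit tunnel and its rim were negative, with a median of -0.29, and 0 were called by edgeR, DESeq2 or limma-voom. Without oxPAPC replicate 3 the median was -0.11 with 7 of 8 negative, and with library size scaling it was -0.19 with 7 of 8 negative. The correction for GC content and length called Rpl23a of this list lower.

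Genes of the stalk, the flexible arm that recruits translation factors, had similar small shifts. Rplp0, its base and a common reference gene in quantitative PCR, had 4848, 4156, 3831 and 3769 CPM in control and 3867, 3767, 3408 and 3586 CPM in oxPAPC libraries. Its groups overlapped narrowly, and the log2 fold change was -0.18 ± 0.22 (SE, adjusted p = 0.64, edgeR). With Rplp1 (-0.21), Rplp2 (-0.15) and Rpl12 (-0.24), all 4 stalk genes were negative, with a median of -0.20 that became -0.09 without oxPAPC replicate 3 and -0.06 with library size scaling.

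The partners of 5S RNA, Rpl5 and Rpl11, averaged 2542 ± 641 and 2418 ± 539.7 CPM without oxPAPC, and 2124 ± 508 and 2001 ± 404 CPM with it (SD, n = 4 per group). Their log2 fold changes were -0.26 and -0.27 (adjusted p = 0.567 and 0.509, edgeR). Of 11 tested genes of the p53 pathway they feed into, 2 rose and 3 fell, where 6.75% of all genes were called higher and 6.52% lower. Sesn2, a stress-induced inhibitor of mTORC1, rose by 0.69 and Bax, a cell death effector, by 0.58 on the log2 scale (adjusted p = 0.0116 and 0.0115, edgeR). Trp53inp1, another p53 target, fell by 0.87, Bbc3 by 0.74 and Zmat3 by 0.49 on the log2 scale (adjusted p = 0.0017, 0.0165 and 0.0419, edgeR). RLE scaling lost the call of Zmat3, library size scaling lost those of Bbc3 and Zmat3 and called Trp53 higher, and Bbc3 was not called without control replicate 2 (adjusted p = 0.0582, edgeR). Mdm2 itself averaged 64.1 ± 7.37 CPM without and 66.8 ± 5.45 CPM with oxPAPC (SD, n = 4 per group). Its log2 fold change was 0.06 (adjusted p = 0.822, edgeR).

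In the small subunit, the 7 listed proteins along the mRNA path (Rps2, Rps3, Fau, Rps15, Rps23, Rps26, Rps28) were all negative, with a median of -0.23. The median was -0.07 without oxPAPC replicate 3 and -0.09 with library size scaling, each with 6 of 7 negative. None passed the test by edgeR, DESeq2 or limma-voom, and none had an unadjusted p under 0.05. Rps2, at the mRNA entry channel, had 3839, 4518, 2481 and 3719 CPM in control and 3120.2, 2753, 3038 and 2474 CPM in oxPAPC libraries, and the groups overlapped at control replicate 3. Rps28 was within 0.03 of no change on the log2 scale and turned positive with library size scaling (0.09). Rps6, the substrate of S6 kinase, had 3131, 2879, 2462 and 2359.8 CPM in control and 3010.3, 2731, 1685 and 2641 CPM in oxPAPC libraries. Only oxPAPC replicate 3 lay outside the control range. Its log2 fold change of -0.11 (adjusted p = 0.821, edgeR) became 0.05 without that library and 0.03 with library size scaling. Of 15 genes of the family mutated in Diamond-Blackfan anemia, an inherited failure of red cell production, 1 rose (Rps10, with the limit given above) and 0 fell. That is 6.67% called higher, where 6.75% of all genes were called higher and 6.52% lower. Rps19, the gene most often mutated in that disease, had a log2 fold change of -0.16 ± 0.28 (SE, adjusted p = 0.765, edgeR).

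Library patterns cut across both subunits. In 27 of 83 subunit genes, control replicate 3 was the highest control and oxPAPC replicate 4 the highest oxPAPC library. Rpl27, a large subunit protein, showed this with 385, 208, 721 and 308 CPM in control and 355, 306, 294 and 862 CPM in oxPAPC libraries. Rpl31, named after its values were seen, had 638, 295, 1383 and 493 CPM in control and 482, 504, 379 and 1361 CPM in oxPAPC libraries. Their log2 fold changes of 0.16 ± 0.39 and -0.04 ± 0.45 (SE) were small beside their errors, and that of Rpl27 was -0.35 without oxPAPC replicate 4 and -0.05 without control replicate 2. The 14 large and 13 small subunit genes of this pattern had a median GC content of 50.5%. In 16 other genes, among them Fau, Rps9 and Rpl37a, control replicate 3 was the lowest control, and their median GC content was 54.68%, against 51.25% for all 83. Fau had 3373, 3589, 1649 and 2272 CPM in control and 2798, 2756, 1459 and 1625 CPM in oxPAPC libraries, so replicates 3 and 4 of both groups were low. Correcting each library for GC content and length called 4 members higher (Rpl7l1, Rps10, Rpl24, Rps19bp1) and 2 lower (Rpl22, Rpl23a), where 3225 genes were called in all.

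**Figure D4:**
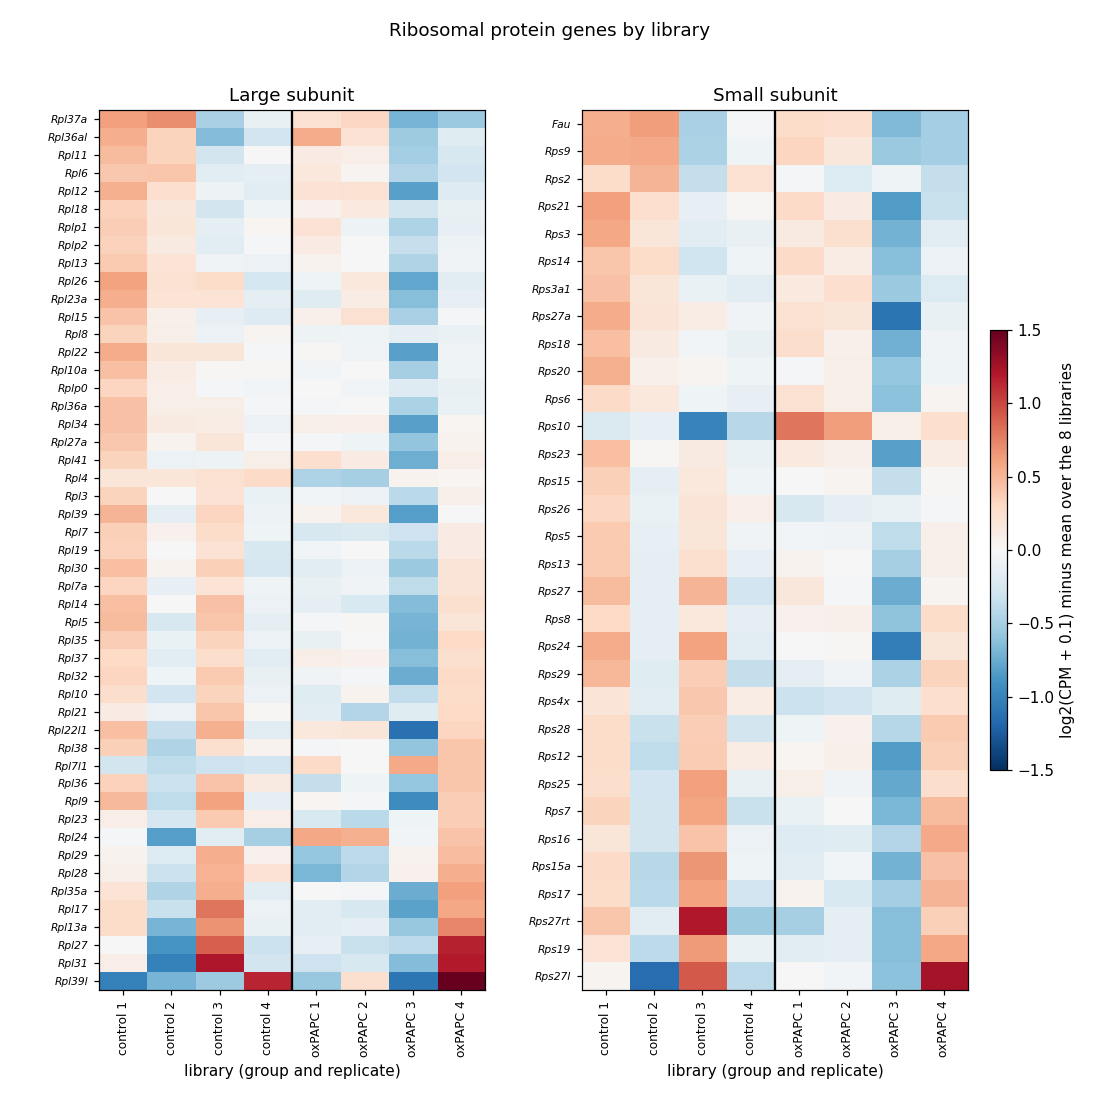
Level of tested subunit genes (rows, 49 large and 32 small) in each library (columns) as log2(CPM + 0.1) minus the gene's mean over the 8 libraries; red is higher, blue lower, and the black line separates control from oxPAPC. The column of oxPAPC replicate 3 is blue in most rows of both subunits, while Rps10, Rpl24 and Rpl7l1 are red across most of the oxPAPC columns.

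Some features were shared by members without having been used to choose them. Their transcripts were short, with a median of 679 bases against 2290 over all tested genes. A total of 29 subunit genes carry 55 annotated snoRNA genes within them, while 1.99% of all tested genes hold any. Chromosome 7 holds 14 members and the X chromosome 4 (Rpl10, Rpl36a, Rpl39, Rps4x), and the log2 fold changes of these 4 lay between -0.30 and -0.11. Over the 83 tested subunit genes, which share libraries and scaling, the log2 fold change had a Spearman correlation of -0.34 with control CPM, -0.14 with transcript length and 0.23 with GC content. Control CPM is itself part of the fold change, so noise alone pushes the first of these correlations below 0.

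The ribosomal proteins outside the name pattern had log2 fold changes in the range of the members. Rpsa, a small subunit protein once known as a laminin receptor, had 10629.6, 10962, 6244 and 6832 CPM in control and 9272, 8471, 5422 and 5903 CPM in oxPAPC libraries, with replicates 3 and 4 low in both groups. Rack1, a signaling scaffold on the small subunit, had 3576, 2918, 2749 and 2401 CPM in control and 3028, 2830.3, 2095 and 2599.7 CPM in oxPAPC libraries. The groups overlapped in both genes, and neither passed the test (log2 fold changes of -0.25 and -0.14, adjusted p = 0.639 and 0.737, edgeR).

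Other TOP mRNAs encode elongation and initiation factors and a few further proteins. All 18 were negative, with a median of -0.32 (library size scaling left 16 negative). edgeR called 0 of them, 5 had an unadjusted p under 0.05 (27.5% of all genes did), and DESeq2 called 3 lower (Nap1l1, Npm1, Pabpc1). In 4 of the 18 the groups did not overlap and oxPAPC was lower (all genes 9.86%). Pabpc1, the cytosolic poly(A) binding protein, had 1059, 1423, 1224 and 1539 CPM in control and 601, 580.1, 1208 and 854 CPM in oxPAPC libraries, a log2 fold change of -0.69 ± 0.25 (SE, adjusted p = 0.0829, edgeR). oxPAPC replicate 3 was the highest of its group and the only one within the control range. Without that library the median of the 18 was -0.31, while that of the ribosomal protein genes moved to -0.07. That edgeR fit called 2 of the 18 lower (Eif3f, Pabpc1), and 2134 of 16797 genes in all. For the 16 tested genes of mTORC1 and TOP translation control, among them Mtor, Larp1 and the S6 kinases, the median was 0.07. edgeR and DESeq2 called 0 of these, 1 had an unadjusted p under 0.05, and limma-voom with quality weights called Pdcd4 lower, as did edgeR without oxPAPC replicate 3.

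Dedicated chaperones carry single ribosomal proteins to the assembling ribosome. Of 7 tested, 5 rose under oxPAPC and 0 fell (71.4% higher, against 6.75% of all genes). Grwd1, the carrier of Rpl3, had 7.12, 8.38, 4.52 and 9.66 CPM in control and 22.9, 16.5, 31.2 and 18.9 CPM in oxPAPC libraries, a log2 fold change of 1.60 ± 0.24 (SE) (adjusted p = 0.000777, edgeR). Heatr3, which works with Rpl5 and Rpl11 import, had 9.51, 10.7, 8.50 and 11.5 CPM in control and 24.9, 19.1, 29.6 and 19.3 CPM in oxPAPC libraries. Its rise was 1.21 ± 0.18 (SE, adjusted p = 0.000597, edgeR). In both the groups did not overlap and oxPAPC replicate 3, the lowest library for most ribosomal proteins, was the highest. Ltv1, a small subunit assembly factor, rose by 0.73, Tsr2, the carrier of Rps26, by 0.61, and Bccip, the carrier of Rpl23, by 0.53 (adjusted p = 0.0165, 0.0458 and 0.0264, edgeR). Aamp and Pdcd2l, with 0.13 and 0.14, did not pass. Without oxPAPC replicate 3, 3 remained called (Grwd1, Heatr3, Ltv1), and 3 were called without oxPAPC replicate 1 and without oxPAPC replicate 4. The fits without control replicate 1 and without control replicate 2 called 2 each, and no fit without 1 library kept all 5. Fits without 1 library also called fewer genes in all, 1390 to 2134 against 2182 in the main fit.

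Mitochondrial ribosomal protein genes, which serve a separate ribosome and were matched by name, had mostly positive values. Of 77 tested, 11 rose (14.3%, against 6.75% of all genes) and 0 fell, 62 were positive and the median was 0.23. Mrpl20 had 21.7, 17.8, 22.2 and 19.4 CPM in control and 46.4, 41.2, 34.9 and 51.9 CPM in oxPAPC libraries, a rise of 1.10 ± 0.15 (SE) on the log2 scale (adjusted p = 0.000394, edgeR). Mrpl41 rose by 0.95, Mrpl55 by 0.80 and Mrps6 by 0.71 (adjusted p = 0.001, 0.0154 and 0.0143, edgeR). Without oxPAPC replicate 3 the count stayed at 11 and the median was 0.29. The count was 5 without control replicate 2, 7 without control replicate 4, 6 without oxPAPC replicate 1 and 5 without oxPAPC replicate 4. Those fits called 1390, 1749, 1526 and 1473 genes in all, in that order, against 2182 in the main fit. The test of each gene compared oxPAPC with control, and the difference between the lists was not tested.

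**Figure D5:**
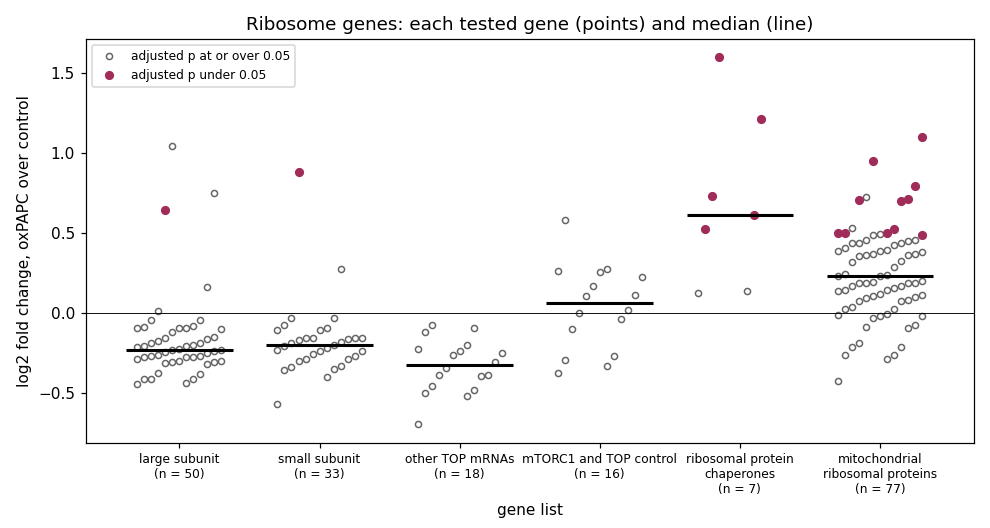
Log2 fold change (oxPAPC over control, y axis) of each tested gene (points; filled where the adjusted p is under 0.05) in 6 gene lists (x axis), with the median of each as a line. The medians of both subunits and of the other TOP mRNAs lie below 0 (-0.23, -0.20 and -0.32), and those of the ribosomal protein chaperones and mitochondrial ribosomal proteins above it (0.61 and 0.23).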

How the data were processed

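RNA-seq gene counts of 4 control and 4 oxPAPC libraries were analysed. Libraries were poly(A) selected, per the labels' protocols. Per the submitters' processing notes, the tools were STAR 2.7.8a, featureCounts 2.0.2 and DESeq2 1.30.1, with genome GRCm38.p6. Strand and multi-mapping settings are not given in the sources used here. Raw counts of each gene in each library were deposited in a single table, per the file headers. It also holds the authors' normalized signal means, log2 fold changes with standard errors, test scores and p-values, per the file headers, which were used only where named.

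Counts were scaled by TMM, filtered with filterByExpr (16434 of 19330 genes kept) and tested with edgeR 4.0.16 (quasi-likelihood, R 4.3.3) over all kept genes, with Benjamini-Hochberg adjustment and a threshold of 0.05. CPM are after TMM scaling. The standard error is the log2 fold change over the square root of F, and intervals cover 95%. Library totals were 14017583 to 21619731, with a common biological coefficient of variation of 0.207. The test was tried on simulated counts first. Alternatives were RLE and library size scaling, TMM without the members, other filters, DESeq2 1.42.0, limma 3.58.1 (voom), a replicate block, leaving out structural and mitochondrial RNA, an offset for GC content and length (loess span 0.5), added pseudogene counts and leaving out each library.

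Of the gene identifiers, 97.8% match GENCODE M21 with identical coordinates, including all 85 members. Lengths, GC content and exon overlap come from the shortest principal transcript there, and promoter windows from RefSeq (GRCm38.p6). Members, lists and the rule for named genes were chosen with earlier results of these data known. The rule took called members, the 4 highest and lowest fold changes per subunit, paralog variants and partners, a preset group (Rplp0, Rpl5, Rpl11, Rpl13a, Rpl41, Rps6, Rps19, Fau), the highest levels and called list members. Rpl31, Rpl10a, Rpl23a, Rpl12, Rplp2, Rps9, Pabpc1, Tsr2, Zmat3, Mdm2 and other list members were named after their values were seen. A few genes chosen this way are left out of the text and of the plots by gene name; counts and medians over all members include them.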

Additional observations from a re-analysis of the deposited data

Results flagged for a closer look

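In 8 of 112 groups of 4 values examined, a single library lay far from the other 3 of its group by Dixon's test, where chance gives about 6. Both sums of oxPAPC replicate 3 were among them: the large subunit genes at 52092 CPM, against 73779 to 76738 in the other oxPAPC libraries, and the small subunit genes at 42743 CPM, against 68082 to 69852. Rpl22 (356 CPM, the others 600.3 to 632) and Rpl22l1 (47.6 CPM, the others 115 to 129) were low in the same library. oxPAPC replicate 4 was high for Rpl27 (862 CPM, the others 294 to 355) and Rpl39l (6.49 CPM, the others 0.441 to 1.26). Control replicate 4 was high for Rpl39l (2.44 CPM, the others 0.466 to 0.685) and for the assembly factor Ltv1 (15.6 CPM, the others 11.9 to 12.2).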

How the results depend on the processing

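The count of called members (2) was 4 with limma-voom quality weights, 6 with the GC content and length offset and 1 with pseudogene counts added, and it ranged from 1 to 3 when single libraries were left out (1 without oxPAPC replicate 1, which lost Rps10). Large subunit calls (1) were 2 with DESeq2, 3 with quality weights, 4 with the offset and 1 to 2 without single libraries; small subunit calls (1) ranged from 0 to 1. The difference between the large and small subunit medians stayed negative without any single library, from -0.05 to -0.01. Mitochondrial ribosomal calls (11) were 17 with the filter at 5 CPM, 5 with the replicate block, 20 with the offset and 5 to 11 without single libraries. Chaperone calls (5) were 3 with the replicate block and 2 to 4 without single libraries. TOP mRNA calls (0) were 1 with the filter at 5 CPM, 3 with DESeq2, 3 with quality weights, 4 with the offset and 0 to 2 without single libraries. The calls over all genes moved too. They were 2182 of 16434 in the main fit, 1884 of 10289 with the filter at 5 CPM and 1453 with the replicate block. DESeq2 called 2663, quality weights 2815 and the offset 3225 of 16066, and fits without single libraries called 1390 to 2134. The cause was not tested.

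Of 84 members, 76 were negative, against 62 with library size scaling, which moved the median of all genes from -0.01 to 0.12, and 64 with quality weights. Only genes named in the text are given here. With library size scaling the sign changed for Rpl41 (0.035), Rps28 (0.086), Rpl10 (0.00220), Rpl13a (0.013) and Rps6 (0.031). DESeq2 gave 0.0025 for Rps28. Quality weights gave 0.10 for Rps28, 0.00928 for Rpl22l1, 0.11 for Rpl13a and 0.0053 for Rps19, and the offset gave -0.024 for Rpl36al. Without single libraries the ranges crossed 0 for Rpl27 (-0.35 to 0.59), Rpl39l (-0.49 to 1.92), Rpl41 (-0.19 to 0.087), Rps28 (-0.18 to 0.10), Rps27l (-0.24 to 0.74), Rps12 (-0.31 to 0.038), Rps14 (-0.28 to 0.0018), Rpl22l1 (-0.32 to 0.053), Rpl36al (-0.19 to 0.23), Rpl13a (-0.41 to 0.17), Rps6 (-0.20 to 0.045) and Rps19 (-0.43 to 0.049).

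Deviations of same-numbered libraries from their group means had correlations of 0.32, -0.05, -0.37 and -0.04, and 2 of 8 libraries were closest to their own number. The main fit did not treat the numbers as pairs. These correlations cannot show that the libraries were unpaired. The replicate block called 1453 genes in all against 2182, and the same 2 members, Rpl7l1 and Rps10. Of the p53 pathway genes it called Bax and Trp53inp1, and not Sesn2, Bbc3 or Zmat3. The alternative planned for normalized values did not apply, since counts were given.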
